A study of Mus musculus with 2 samples.

Results

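The microRNA gene Mir139 was 1 of 2202 microRNA genes counted by microRNA-seq, a sequencing of small RNA, in hippocampal tissue. It was taken by its GENCODE M21 symbol, with the reads on the strand of the gene, and it was chosen by its measured level, the highest mean CPM (counts per 1000000 assigned reads) outside the let-7 family. Its level and rank are therefore a description with no test. The only group held 2 libraries, numbered as biological replicates 1 and 2, of a hippocampal layer, per the tissue label. The mice were adult males of strain 5xFAD/CAST, 8 to 10 months old, from The Jackson Laboratory. 5xFAD is a transgenic model of Alzheimer disease whose transgenes are expressed in neurons under the Thy1 promoter, and CAST mice are an inbred strain derived from wild Mus musculus castaneus. The labels give each library a tissue record of its own and both a single donor record, so whether the tissues came from separate animals is not settled, and the spread between the libraries may be technical. The design had no control, so neither genotype nor age was compared.

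A microRNA is cut from a hairpin in a longer transcript, and either arm of the hairpin can become the mature strand, which pairs with messenger RNAs mainly through its seed, bases 2 to 8. Many hairpins lie in introns of protein-coding genes and can be made from the transcript of that host gene. The host of Mir139, Pde2a, encodes a phosphodiesterase that breaks down cAMP and cGMP, is stimulated by cGMP and is abundant in the forebrain, the hippocampus included. In human cells miR-139 is known mainly as a growth-restraining microRNA that targets IGF1R, ROCK2 and NOTCH1, among others.

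The hairpin of Mir139 (ENSMUSG00000065446.1) lies on the plus strand of mm10 at chr7:101475376-101475443. It is shown first because every value below is a count of reads over this stretch. Sequences are those of RefSeq for GRCm38.p6, the reference assembly and not the CAST genome, and the hairpin has the same letters as the GENCODE M21 transcript. In the hairpin the capitals mark the 2 mature arms, and in the mature strands they mark the seed.
Mir139 hairpin: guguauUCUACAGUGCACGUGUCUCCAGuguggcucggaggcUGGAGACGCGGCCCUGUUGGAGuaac
mmu-miR-139-5p: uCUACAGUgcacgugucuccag
mmu-miR-139-3p: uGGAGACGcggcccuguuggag

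The 5′ arm took bases 7 to 28 of the 68 bases and the 3′ arm bases 43 to 64, with 14 bases between them. In the predicted minimum free energy fold (RNAfold, -35.6 kcal/mol), 19 of the 22 bases of the 5′ arm paired with the 3′ arm, and bases 8 and 11 of the 5′ arm were unpaired. Per base the predicted free energy was -0.52 kcal/mol, against a median of -0.44 kcal/mol over the 329 detected genes with a RefSeq hairpin, of which 48 had a lower value. The hairpin was short, with 57 of these 329 genes having a shorter one, and had a GC content of 58.8%, against a median of 52.1% over all 389 detected genes.

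Neither seed occurred in a mature strand of another gene in the RefSeq table. The 5′ strands of the genes next to it are shown to compare the seeds, which differ between Mir139 and Mir744 and are shared by the let-7 strands.
mmu-miR-744-5p: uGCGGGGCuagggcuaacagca
mmu-let-7b-5p: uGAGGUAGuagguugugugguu
mmu-let-7g-5p: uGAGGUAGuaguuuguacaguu
The let-7b seed was shared by 10 other mature strands, and that of miR-744-5p by 0. The mature strands closest to miR-139-5p, among them miR-128-3p, differed from it by 7 edits, and the closest to miR-139-3p, miR-6900-3p, by 6 edits, out of 1678 other strands compared. Mir139 also shared no stretch of 20 bases with a microRNA gene at another place, as 1087 of the 2202 genes did. Counts are per hairpin, so reads of the 5′ and 3′ arms cannot be told apart.

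Mir139 lay in an intron of Pde2a in 10 of its 12 annotated transcripts, in an exon of 0, and outside the span of the others. In the coding transcript Pde2a-202 it was in intron 2, which runs over 29902 bases, 23907 bases after the exon before it and 5927 bases before the next exon. Pde2a-206 and Pde2a-209 carry a further exon before it and hold it in intron 3, of 19829 bases. It lay 53.7 kb from the annotated start of the 91.1 kb gene, on the same strand. A second coding gene model, Gm45837, spans the hairpin too and holds it in an intron, so the counts do not assign it to either transcript. Its first exon lies before the annotated start of Pde2a, and its other exons have the positions of those of Pde2a-209. It is thus largely the same annotated stretch with an earlier start. Pde2a RNA was not measured.

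**Figure D1:**
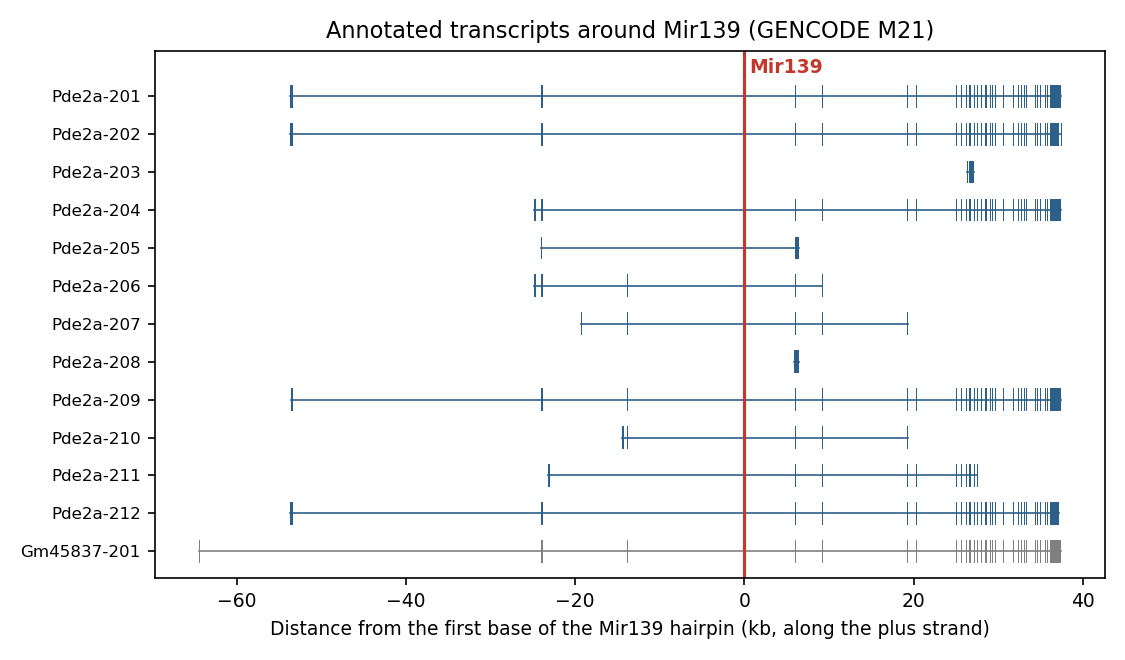
Annotated GENCODE M21 transcripts of Pde2a (blue) and Gm45837 (grey), with exons as boxes, against the distance in kb from the first base of the Mir139 hairpin (red line). The hairpin lies in an intron of 10 of the 12 Pde2a transcripts, 5927 bases before the next exon.

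No other microRNA gene was annotated in Pde2a, and Mir139 had no near neighbour on chromosome 7. The closest microRNA genes were Gm22655, 406 kb after it with 0 reads in both libraries, and Mir3102, 593 kb before it in an exon of Arhgef17, with 940 ± 612 CPM (SD, n = 2 libraries). The nearest detected gene on the other side, Mir7059, was 25.1 Mb away with 10 reads in replicate 2 and 18 reads in replicate 1. Detection required at least 10 reads in each library. Mir139 held 81.7% of all reads assigned to the 153 microRNA genes of chromosome 7 in replicate 2 and 84.5% in replicate 1, and 22 of those genes were detected.

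By assigned reads Mir139 was the third most abundant microRNA gene by mean level. Reads with several matching places were assigned to no gene, so genes that share sequence may be undercounted. The rank therefore holds for assigned reads only. It received 279876 reads in replicate 2 and 301916 reads in replicate 1, of 2820468 reads assigned to microRNA genes in replicate 2 and 3421977 in replicate 1. That was 99230 CPM in replicate 2 and 88229 CPM in replicate 1, a mean of 93729 ± 7779 CPM (SD, n = 2). As a share of assigned reads it held 9.92% (exact Clopper-Pearson 95% interval 9.89 to 9.96) in replicate 2 and 8.82% (8.79 to 8.85) in replicate 1. The 2 intervals, which cover counting error only, did not overlap, and the SD between the libraries was larger than the counting error, ±349 CPM in replicate 2 and ±301 CPM in replicate 1. The median detected gene had 105 CPM, and the mean of Mir139 was 889 times that. The 329 least abundant detected genes, 84.8% of the others, together held no more of the assigned reads than Mir139 alone.

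All of its reads were on the strand of the gene. The opposite strand had 0 reads in both libraries, which allows up to 0.0011% of its reads in replicate 2 and 0.00099% in replicate 1 (3 reads). The share depends on what it is taken of, since reads with several matching places were assigned to no gene and made up 38.2% of all reads in replicate 2 and 41.6% in replicate 1. Of all reads of the library, assigned or not, Mir139 held 3.27% in replicate 2 and 3.11% in replicate 1, about 1 read in 30.6 in replicate 2 and 1 in 32.2 in replicate 1. Outside the let-7 and miR-98 genes it held 14.9% of assigned reads in replicate 2 and 13.7% in replicate 1. In bulk tissue, a change in the number of cells of a type and a change in the RNA made per cell cannot be told apart.

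The genes next to Mir139 in order were Mirlet7b and Mirlet7g above it and Mir744 and Mirlet7i below it. Within a library the ratio of 2 genes does not depend on any scaling. Mir139 had 0.86 of the reads of Mirlet7b in replicate 2 and 0.75 in replicate 1, so it was below Mirlet7b in both, and their ranges did not overlap. Against Mirlet7g the order turned round. Mir139 had 1.07 times its reads in replicate 2 (95% interval 1.07 to 1.08) and 0.76 times its reads in replicate 1 (0.76 to 0.77), and their levels, with Mirlet7g at 92447 CPM in replicate 2 and 115867 CPM in replicate 1, were not apart beyond the spread. Mir139 was thus the second gene in replicate 2 and the third in replicate 1.

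Mir744, in an intron of the kinase gene Map2k4, was the gene nearest to Mir139 in level over the 2 libraries. Mir139 had 1.05 times its reads in replicate 2 (1.04 to 1.05) and 1.02 times in replicate 1 (1.02 to 1.03). The order was the same in both libraries, but the ranges of the levels overlapped, as Mir744 had 94884 CPM in replicate 2 and 86184 CPM in replicate 1, so by their ranges the genes were not apart. The ratio within a library, which leaves out what both genes share, was 1.03 ± 0.016 (SD, n = 2). Mir139 was chosen for the highest mean outside the let-7 family. Its place above Mir744 by mean was therefore set by that choice and was not tested. The Euclidean distance between the genes over the 2 libraries was 0.073 on the log2(CPM + 1) scale. By the same measure Mirlet7g (0.41), Mirlet7b (0.47), Mirlet7i (1.30) and Mirlet7d (2.10) came next. From Mirlet7i on, the order was clear of the spread. Mir139 had 2.15 times the reads of Mirlet7i in replicate 2 and 1.62 times in replicate 1. It had between 2.24 and 3.84 times the reads of Mirlet7d, Mir127 and Mirlet7e in either library. Together Mir139 and Mir744 held 19.4% of assigned reads in replicate 2 and 17.4% in replicate 1.

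**Figure D2:**
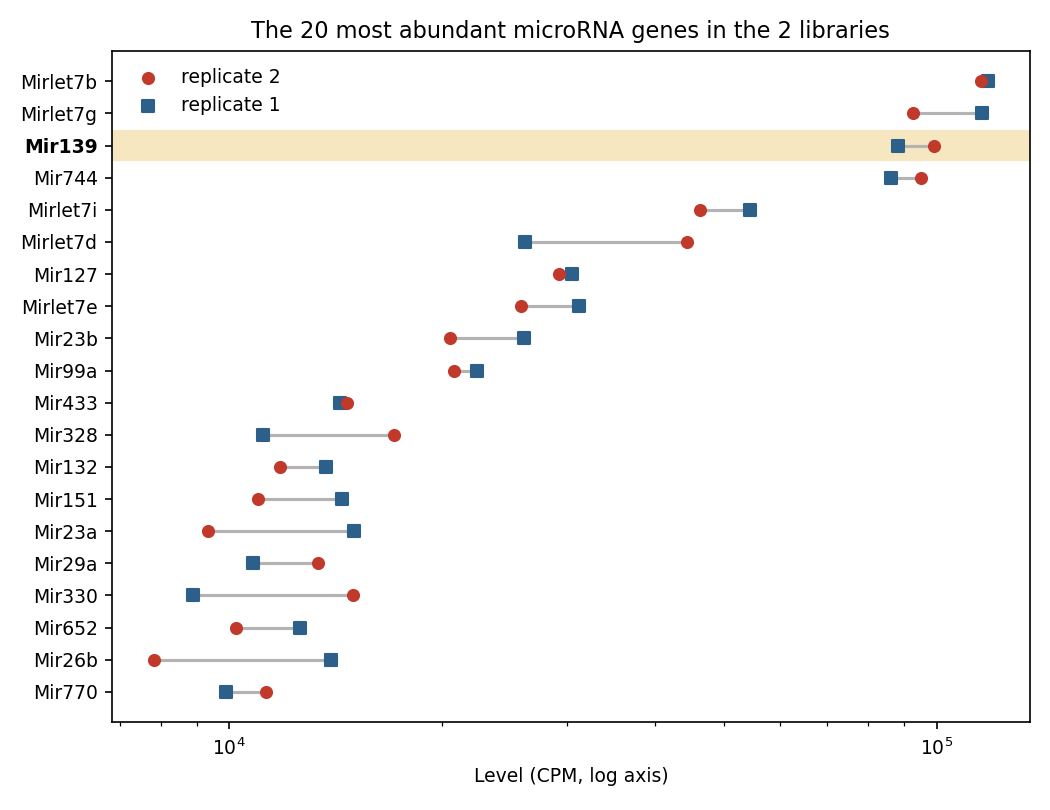
Level in CPM (log axis) of the 20 most abundant microRNA genes, ordered by mean, in replicate 2 (red circles) and replicate 1 (blue squares), each joined by a line. Mir139, shaded, lies between 88229 and 99230 CPM, overlaps Mirlet7g and Mir744, and lies clear of Mirlet7b above and Mirlet7i below.

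Between the libraries Mir139 differed little. After TMM scaling, which sets the 2 library sizes by the bulk of the genes, its log2 ratio of replicate 2 over replicate 1 was 0.071 (exact 95% interval 0.063 to 0.078), a 1.05-fold difference. By a two-sided exact binomial test of the 2 counts, with Benjamini-Hochberg adjustment over 389 detected genes, this passed the 0.05 threshold (adjusted p = 9.27e-77). So did 67.6% of all detected genes, with 33.9% higher and 33.7% lower in replicate 2, all of the 20 most abundant genes and 95.6% of the 90 genes of at least 1000 CPM. The test compares 2 libraries beyond counting error, which is small at this depth, and not conditions. In the edgeR exact test, which takes the spread of the same 2 libraries as its error, Mir139 was not called (adjusted p = 1). That test called 2 genes, or 0.514%, with 23 at an unadjusted p under 0.05.

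The size and the sign of this difference depended on the processing. The log2 ratio was 0.17 with library totals and 0.018 with the size factors of DESeq2, and it was -0.11 after a linear fit of the ratio on hairpin GC content. The 117 detected genes within 5 percentage points of the GC content of Mir139 had a median log2 ratio of 0.18, against 0.053 for all detected genes. The part of GC content in the ratio of this gene was not tested.

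After TMM scaling the size of the ratio was small beside that of most other genes. Of the 389 detected genes 26 (6.68%) had a log2 ratio nearer to 0 than Mir139, as did 8 of the 90 genes of at least 1000 CPM, whose median size was 0.39 on the log2 scale. The 0 is set by the scaling, and the median log2 ratio of these 90 genes was -0.16. By CPM, without TMM scaling, the SD of Mir139 was 8.3% of its mean, against a median of 15.6% over the 90 genes. Of these, 24 had a smaller SD relative to the mean. The genes of at least 1000 CPM whose log2 ratio was nearest to that of Mir139 were Mirlet7f-2 (0.074), Mir770 (0.088), Mir221 (0.052), Mir137 (0.092) and Mir744 (0.040). Mirlet7f-2 shares sequence with another gene and is uncertain, and Mir770 lies in an exon of the imprinted noncoding gene Meg3. With 2 libraries this likeness is a single number per gene.

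**Figure D3:**
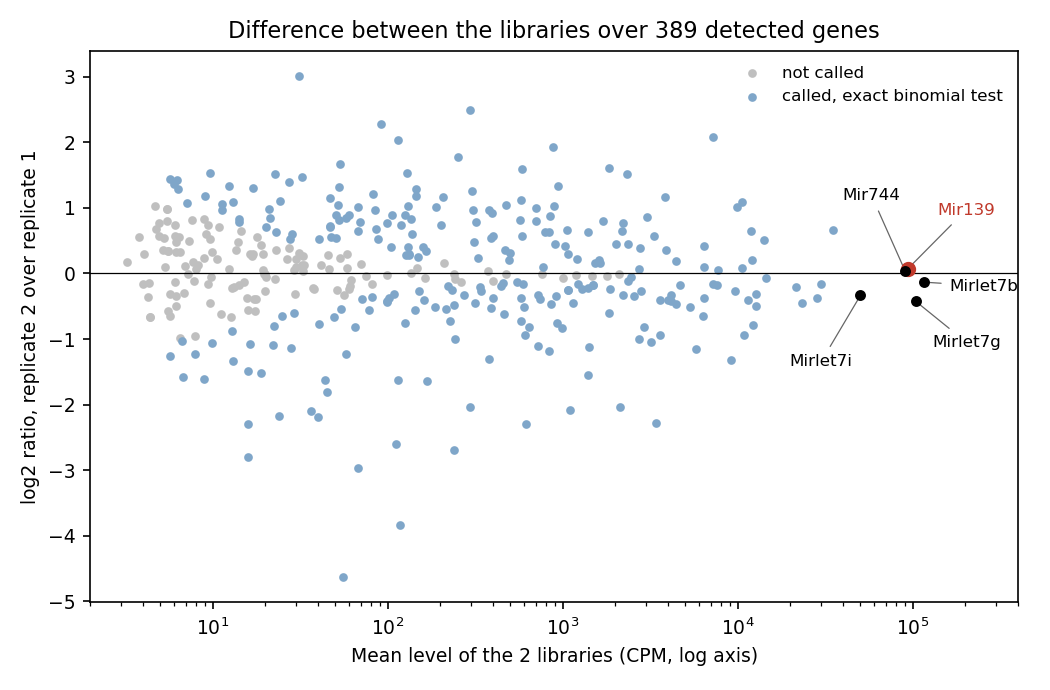
Log2 ratio of replicate 2 over replicate 1 after TMM scaling against mean level in CPM (log axis) for all detected genes, with genes called by the exact binomial test in blue and the others in grey. Mir139 (red) lies at 0.071, near Mir744 at 0.040, and Mirlet7g lies at -0.42.

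**Figure D4:**
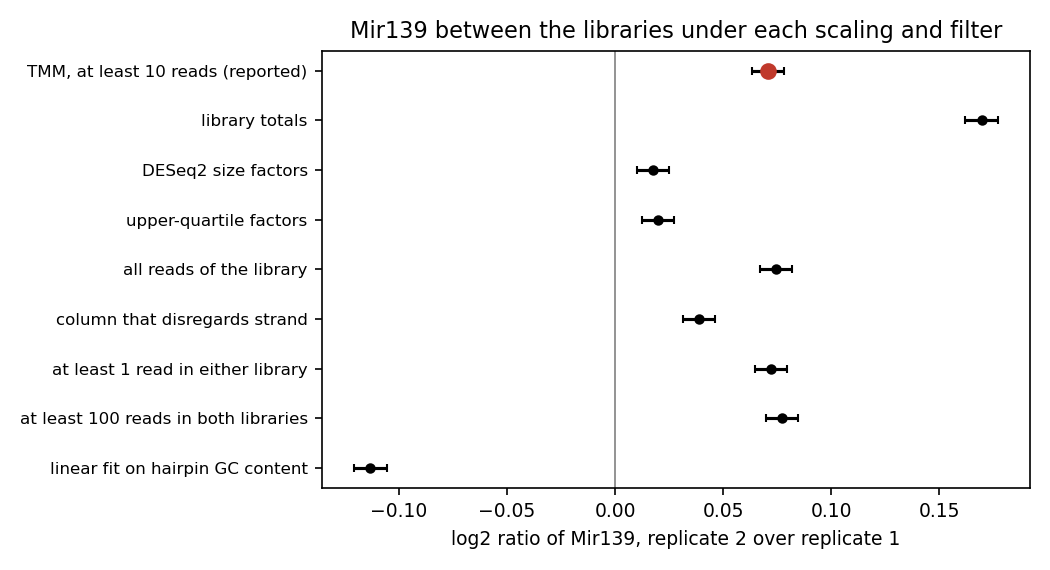
Log2 ratio of Mir139, replicate 2 over replicate 1, under 9 settings of scaling, filter, count column and GC correction, with exact 95% intervals for counting error as bars. The values run from -0.11 with the GC fit to 0.17 with library totals, and the reported value is 0.071 (red).

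Among microRNA genes in introns, Mir139 held a large share. Of 793 genes in an intron of a gene on the same strand and in no exon, 176 were detected, and together the 793 took 50.0% of assigned reads in replicate 2 and 52.4% in replicate 1. Mir139 held 19.8% of these intronic reads (95% interval 19.8 to 19.9) in replicate 2 and 16.8% (16.8 to 16.9) in replicate 1. It ranked first among them in replicate 2 and second in replicate 1, where Mirlet7g, in an intron of Wdr82, was higher. The median detected intronic gene had 71.2 CPM.

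A list of 30 microRNA genes known for introns of brain-expressed host genes was compared with it. The annotation placed 29 of them in a same-strand intron and Mir330 in an exon of Eml2. Of the 30 genes 29 were detected, and between the libraries 12 were higher, 13 lower and 4 not called, where 33.9% of all detected genes were higher and 33.7% lower. Their median log2 ratio was 0.040, against 0.053 for all detected genes. Mir139 and Mir744 headed the list. Next came Mir151, in the focal adhesion kinase gene Ptk2, with 12713 ± 2442 CPM, Mir330 with 11922 ± 4275 CPM and Mir652, in Tmem164, with 11410 ± 1680 CPM (SD, n = 2 each). Mir139 had 9.03 times the reads of Mir151 in replicate 2 and 6.11 times in replicate 1. Mir326, 1.92 Mb before Mir139 on chromosome 7 in an intron of the arrestin gene Arrb1, had 466 ± 102 CPM. The 30 genes took 27.4% of assigned reads in replicate 2 and 25.0% in replicate 1, and Mir139 held 0.36 of those reads in replicate 2 and 0.35 in replicate 1.

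**Figure D5:**
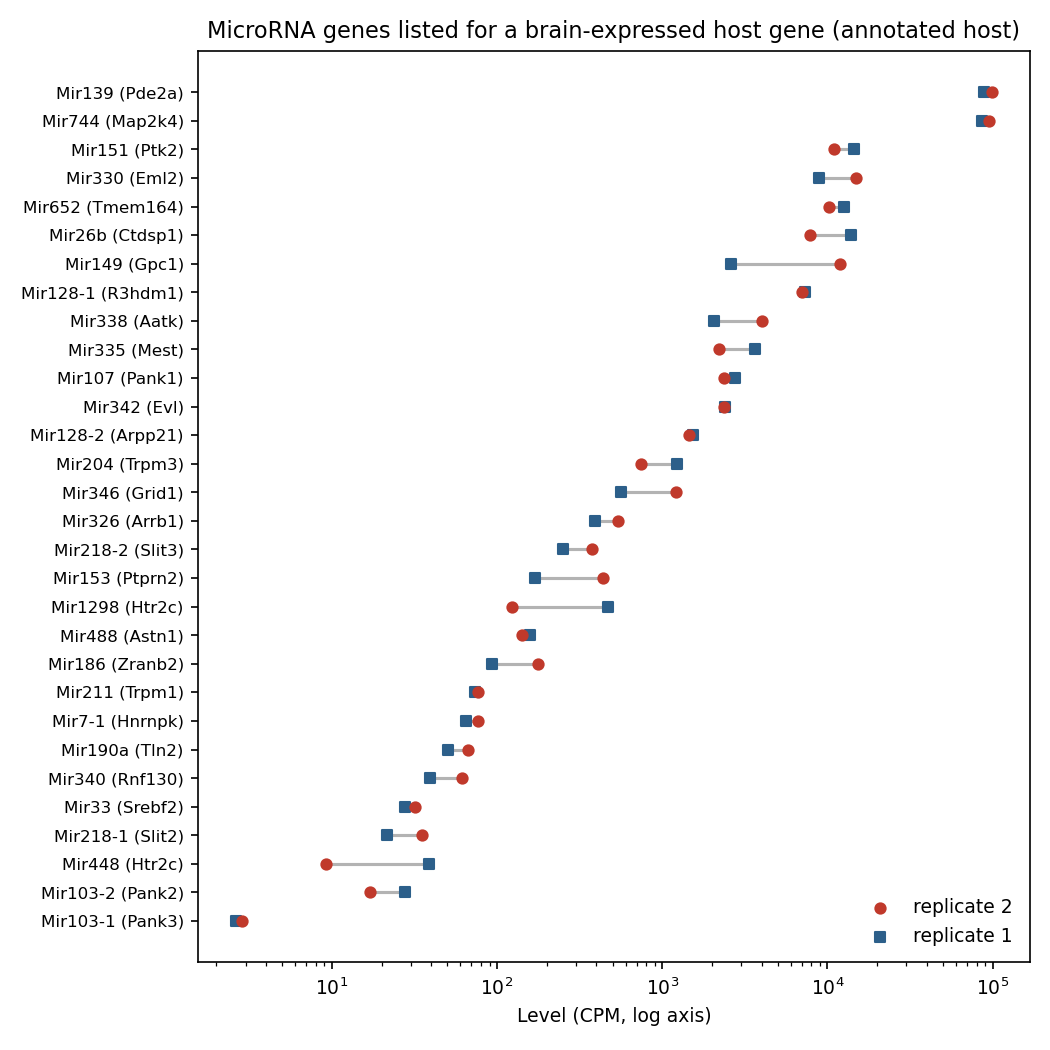
Level in CPM (log axis) of 30 listed microRNA genes in replicate 2 (red circles) and replicate 1 (blue squares), with the annotated host gene in brackets. Mir139 and Mir744 lie at 86184 CPM or more in both libraries, and the next gene, Mir151, lies at 10986 CPM in replicate 2 and 14440 CPM in replicate 1.

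Host genes of cyclic nucleotide metabolism, the class of Pde2a, held few other microRNA genes. The annotation gave 4 in same-strand introns of genes named for phosphodiesterases, adenylate or guanylate cyclases or their kinases. Besides Mir139 only Mir582, in the cAMP phosphodiesterase gene Pde4d, was detected, with 47 reads in replicate 2 and 38 in replicate 1 (13.9 ± 3.93 CPM). Mir1904, also in Pde4d, and Gm44413, in Pde1c, had 0 reads in both libraries, which allows up to 1.06 CPM in replicate 2 and 0.877 CPM in replicate 1.

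Markers of the tissue were present beside Mir139. Of the 18 neuron-enriched genes 14 were detected, led by Mir132 (12751 ± 1353 CPM), Mir128-1 (7201 ± 219 CPM) and Mir137 (6409 ± 598 CPM). The copies of miR-124 were at or near 0, with 5 reads in each library for Mir124a-1 and 0 for Mir124a-2 and Mir124a-3. They and 10 of the 14 share sequence with another gene and are uncertain. Mir139 had 2.76 times the summed assigned reads of this list in replicate 2 and 2.58 times in replicate 1. Reads with several matching places are missing from that sum, so these ratios may be too high. Of the detected genes of the list 9 were higher in replicate 2 and 4, Mir132 and Mir128-1 among them, were lower. The median log2 ratio of the 14 was 0.47. Over all detected genes 33.9% were higher and 33.7% lower, with a median of 0.053.

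Other cell types were also represented, and the counts of their genes called between the libraries stand beside the same 33.9% higher and 33.7% lower over all detected genes. The astrocyte-rich list took 3.50% of assigned reads in replicate 2 and 3.81% in replicate 1 (3 of 7 detected genes higher, 3 lower), and 6 of the 7 share sequence with another gene and are uncertain. The oligodendrocyte list took 0.667% in replicate 2 and 0.503% in replicate 1 (1 of 2 higher, 1 lower). Its members Mir219a-2 and Mir219a-1 share sequence and are uncertain. Mir219a-1, with 26 reads in replicate 2 and 2 in replicate 1, was not detected. Microglia and leukocyte genes took 0.449% in replicate 2 and 0.521% in replicate 1 (5 of 7 lower, 0 higher). Of these, Mir146 and Mir146b share sequence and are uncertain. Endothelial and mural genes took 1.32% in replicate 2 and 2.17% in replicate 1 (3 of 3 lower). The choroid plexus and ependyma list took 0.164% in replicate 2 and 0.342% in replicate 1 (3 of 5 lower, 1 higher).

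The epithelial and sensory list took 0.0111% in replicate 2 and 0.0712% in replicate 1, and all 6 detected genes were lower, at a median log2 ratio of -2.45. The muscle, liver, red cell and pancreas list took 0.0557% in replicate 2 and 0.0801% in replicate 1 (2 of 7 lower, 1 higher), and its members Mir1a-1 and Mir133a-2, which share sequence, had 0 reads. Against these shifts Mir139 moved by 0.071 on the log2 scale. Their part in that difference was not tested.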

How the data were processed

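MicroRNA-seq of 2 libraries of 1 group was used. The authors deposited raw counts of reads for each microRNA gene in 3 columns (either strand, gene strand, opposite strand), of which the gene-strand counts were used. Text notes beside each deposited table name mm10 and GENCODE M21. Aligner, counter and trimming: not given in the sources used here. The 4 leading rows that name no gene held 67.0% of reads in replicate 2 and 64.8% in replicate 1 and entered neither library sizes nor tests. All 2202 IDs matched GENCODE M21.

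CPM were computed over assigned reads. A quasi-likelihood test needs a contrast, which 1 group lacks, so a two-sided exact binomial test set the 2 counts of each detected gene against TMM sizes (edgeR 4.0.16, R 4.3.3). Intervals cover the counting error of reads only, since they hold no term for the spread between libraries. No molecular identifiers were counted, so the counts are of reads and not of molecules. In simulated Poisson counts the test recovered 171 of 185 genes changed 2-fold and called 3 of 186 unchanged genes. These counts held counting error only, as the test assumes. They cannot show how often it calls unchanged genes in libraries with further spread, as here. Folds came from RNAfold 2.7.2. The genome was not searched for copies of the hairpin outside annotated microRNA genes.

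Named genes were Mir139, those next to it in order, in level, in ratio and on its chromosome, those with its seeds or in introns of cyclic nucleotide genes, and the leading list members. Mir139 and the lists were chosen with earlier results of these data known. Alternatives were other scalings, denominators, count columns, filters, a GC fit and leaving out a library.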

Additional observations from a re-analysis of the deposited data

How the results depend on the processing

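The level of Mir139 depends on its denominator. Against 93729 CPM of assigned reads it was 31905 per 1000000 reads of the whole library, 43236 with reads of several matching places added, and 142964 without the let-7 and miR-98 genes. Its rank by assigned reads was 3 and ran from 2 to 3 when either library was left out. Reads with several matching places could not enter that rank. The log2 ratio between the libraries stayed positive and called under 7 alternatives, from 0.018 with DESeq2 size factors to 0.17 with library totals. It reversed to -0.11 after the fit on GC content, and the cause was not tested. In the edgeR exact test it was 0.071 with adjusted p = 1, and the count of called genes was 2 in place of 263, as that test adds the spread between the 2 libraries. Under the other alternatives that count ran from 208 of 241 genes tested (86.3%) to 282 of 756 (37.3%), against 263 of 389 (67.6%). The share of intronic reads, 18.3%, was 20.2% without shared genes and 20.4% with coding hosts only. The ratio to Mirlet7g was 1.07 without replicate 1 and 0.76 without replicate 2, so the order of these genes turned round. The ratio to Mir744 was 1.05 without replicate 1 and 1.02 without replicate 2. The ratio between libraries cannot be had without either library. No paired analysis was possible because there was 1 group. Depth does not limit the ratio of Mir139, whose counting interval is narrow, but the labels give both libraries a single donor record, so their spread cannot be taken as that between animals.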
